A study of Homo sapiens with 6 samples.

Results

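Accessible chromatin was examined along 5 very large human genes that overlap common fragile sites: FHIT, WWOX, IMMP2L, MACROD2 and LRP1B. A peak belonged to a gene when it overlapped the gene's hg19 span by at least 1 bp. Over all libraries, 44 of 32037 accessible regions lay in these spans, which together measure 7.47 Mb. The lists come from ATAC-seq, a sequencing assay of the DNA that a transposase can reach and cut in nuclei. The cells were CCRF-CEM, an established human T lymphoblast leukaemia line, either the wild-type parent, which expresses SLFN11, or SLFN11-knockout cells derived from it. SLFN11 is recruited to replication forks under stress, and cells that express it are killed more readily by DNA-damaging drugs. Each genotype received DMSO, the solvent, or 100 nM camptothecin, which locks topoisomerase I in its complex with DNA, and was present for 2 h or 4 h. The knockout codes share a single prefix, so clone and genotype cannot be told apart.

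There was 1 library for each of the 6 combinations of genotype and treatment, so replicate error is unknown and neither treatments nor genotypes were tested against each other. Libraries are placed by the code in their peak identifiers, matched to the code in the sample titles. All 6 peak lists are recorded under a sample whose title carries another code. By the recorded samples, the library here called parent DMSO would be parent 4 h, parent 2 h would be parent DMSO and parent 4 h would be parent 2 h, and the knockout libraries shift in the same way. Genotype is the same under both placements, and the main comparisons between treatments are given under both. Settings such as lists of equal length or a stricter q are given by code only. After overlapping entries were merged, lists held 14205 peaks in parent DMSO, 23665 in parent 2 h and 21617 in parent 4 h. The knockout lists held 19289, 20894 and 19167 peaks in the same order. Read totals were not used here. Summits of member peaks rested on a pileup of 8 to 77 (median 17), recovered from the fold enrichment and p of each entry, so presence or absence near the threshold is uncertain. Whether the pileup counts reads or fragments is not given.

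Common fragile sites are stretches that break or show gaps on metaphase chromosomes when replication is slowed. Many of them lie in genes so long that transcription of a single copy can take a large part of the cell cycle, and in stretches that replicate late from few origins. FHIT spans the site FRA3B and WWOX the site FRA16D, both frequently deleted in cancer. FHIT encodes a dinucleoside triphosphate hydrolase, WWOX an oxidoreductase with WW domains, IMMP2L a peptidase subunit of the mitochondrial inner membrane and MACROD2 a hydrolase that removes ADP-ribose. LRP1B encodes a very large receptor of the low-density lipoprotein receptor family.

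The starts of these genes separated them into those with and those without a called promoter. Regions within 1 kb of the annotated 5′ end were called at FHIT, WWOX and IMMP2L in all 6 libraries, and at MACROD2 and LRP1B in none. The nearest region of any library on the outer side of the 5′ end was 210 kb away at MACROD2 and 54.0 kb at LRP1B. The 250 bases before the RefSeq start are shown for FHIT, WWOX and IMMP2L, whose starts were called, and for MACROD2, whose start was not. Capitals mark matches, on either strand, to the GC box GGGCGG, a site of Sp factors, and to the AP-1 motif TGANTCA.
FHIT (GRCh38, chr3:61251453-61251702, minus strand): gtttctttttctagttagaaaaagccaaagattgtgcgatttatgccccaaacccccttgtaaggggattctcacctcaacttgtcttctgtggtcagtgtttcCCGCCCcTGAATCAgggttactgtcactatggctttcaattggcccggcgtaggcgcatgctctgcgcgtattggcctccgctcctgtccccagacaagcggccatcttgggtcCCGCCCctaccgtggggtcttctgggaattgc
WWOX (GRCh38, chr16:78099404-78099653, plus strand): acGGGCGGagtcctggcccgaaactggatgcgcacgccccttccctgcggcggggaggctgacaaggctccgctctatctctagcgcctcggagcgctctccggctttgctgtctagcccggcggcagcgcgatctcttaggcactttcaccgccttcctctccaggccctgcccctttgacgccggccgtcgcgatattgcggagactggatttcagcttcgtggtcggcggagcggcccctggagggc
IMMP2L (GRCh38, chr7:111562493-111562742, minus strand): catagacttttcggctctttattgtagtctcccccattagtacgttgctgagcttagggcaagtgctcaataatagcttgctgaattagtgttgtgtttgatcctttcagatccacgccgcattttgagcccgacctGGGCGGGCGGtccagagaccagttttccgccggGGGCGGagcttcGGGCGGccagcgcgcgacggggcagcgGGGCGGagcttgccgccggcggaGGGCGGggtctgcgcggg
MACROD2 (GRCh38, chr20:13995266-13995515, plus strand): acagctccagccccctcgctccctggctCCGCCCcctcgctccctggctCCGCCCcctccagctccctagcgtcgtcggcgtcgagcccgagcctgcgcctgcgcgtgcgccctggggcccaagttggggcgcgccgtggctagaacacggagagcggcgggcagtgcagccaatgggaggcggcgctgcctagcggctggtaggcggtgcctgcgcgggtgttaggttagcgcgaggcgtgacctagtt

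These sequences are RefSeq's on GRCh38, and their coordinates belong to that build, whereas all peaks are on hg19. GC boxes, overlapping ones counted separately, numbered 2 in FHIT, 1 in WWOX, 6 in IMMP2L and 2 in MACROD2. A GC box occurred in 42.6% of all 35116 RefSeq promoter windows of this length. The AP-1 motif was found in FHIT alone among the 4 and in 6.57% of all windows. The MACROD2 window had the highest GC content of the 4 (73.2%) and the most CpG dinucleotides (29). FHIT had 54% GC and 11 CpG, WWOX 67.6% and 27, and IMMP2L 61.6% and 24, against medians of 58% and 11 over all windows. The uncalled MACROD2 start thus lay above the 3 called starts on both measures. No RefSeq promoter at the start of LRP1B, the other uncalled gene, was available, so LRP1B is not compared.

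Peaks were sparse in the spans as a whole. In the parent libraries there were 2.81 peaks per Mb at DMSO (exact Poisson 95% interval 1.74 to 4.30, from 21 peaks), 4.01 at 2 h (2.71 to 5.73, 30 peaks) and 2.68 at 4 h (1.63 to 4.13, 20 peaks). The knockout libraries gave 3.88 at DMSO (2.60 to 5.57, 29 peaks), 4.15 at 2 h (2.82 to 5.89, 31 peaks) and 4.28 at 4 h (2.93 to 6.05, 32 peaks). The whole lists averaged 4.82, 8.03 and 7.33 peaks per Mb for the parent lists, and 6.54, 7.09 and 6.50 for the knockout lists, over 2949 Mb between the outermost peaks of 23 chromosomes. The ratio to the whole list was lowest in parent 4 h, at 0.365 (0.223 to 0.564), and highest in knockout 4 h, at 0.659 (0.451 to 0.930). In all 6 libraries the interval of this ratio stayed below 1. Intervals cover counting error only, and neighbouring peaks are not independent.

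**Figure D1:**
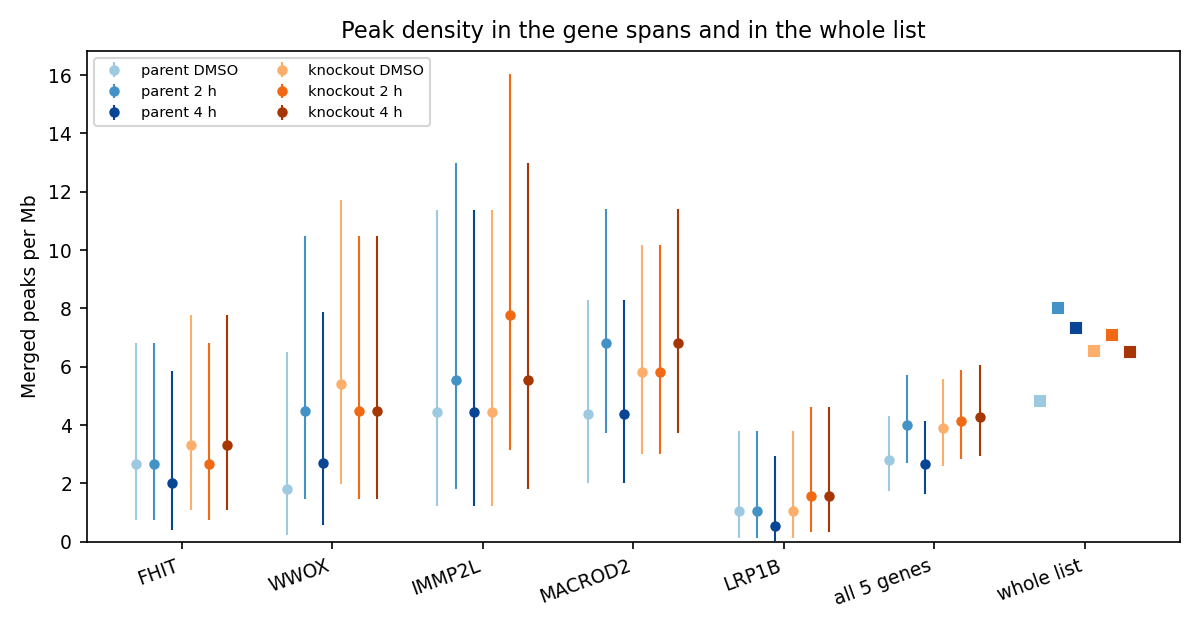
Merged peaks per Mb (vertical axis) in each gene span, in all 5 spans and in the whole list. Circles are single libraries with exact Poisson 95% intervals, and squares are whole-list densities. LRP1B stays at or below 1.58 peaks per Mb in every library, while IMMP2L and MACROD2 lie between 4.37 and 7.78.

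Pooled over the genes, the density was close to that of the surroundings, but the genes differed among themselves. The 1 Mb on either side of the spans held between 2.70 and 4.00 peaks per Mb over the 6 libraries. MACROD2 was denser than its flanks in all 6 libraries (6.80, interval 3.72 to 11.4, against 4.50 peaks per Mb in parent 2 h). LRP1B was sparser in 5 of 6 (0.526, interval 0.0133 to 2.93, against 2.00 in parent 4 h). In both quoted cases the flank value lay inside the interval of the span. The libraries share regions, so they do not count as separate evidence. FHIT and IMMP2L were denser in 4 libraries and sparser in 2, and WWOX the reverse. Peaks are unevenly spread along chromosomes, and the median 1 Mb window of the genome held 4 to 6 peaks, fewer than the mean. Between 33.3% and 44.7% of the 2939 windows held no more peaks per Mb than the 5 spans together in the same library. Windows without any peak made up 13.0% to 16.1%, and unassembled sequence was not removed. Single windows vary more than a mean over 7.47 Mb, so this rank does not show how unusual the pooled density is.

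**Figure D2:**
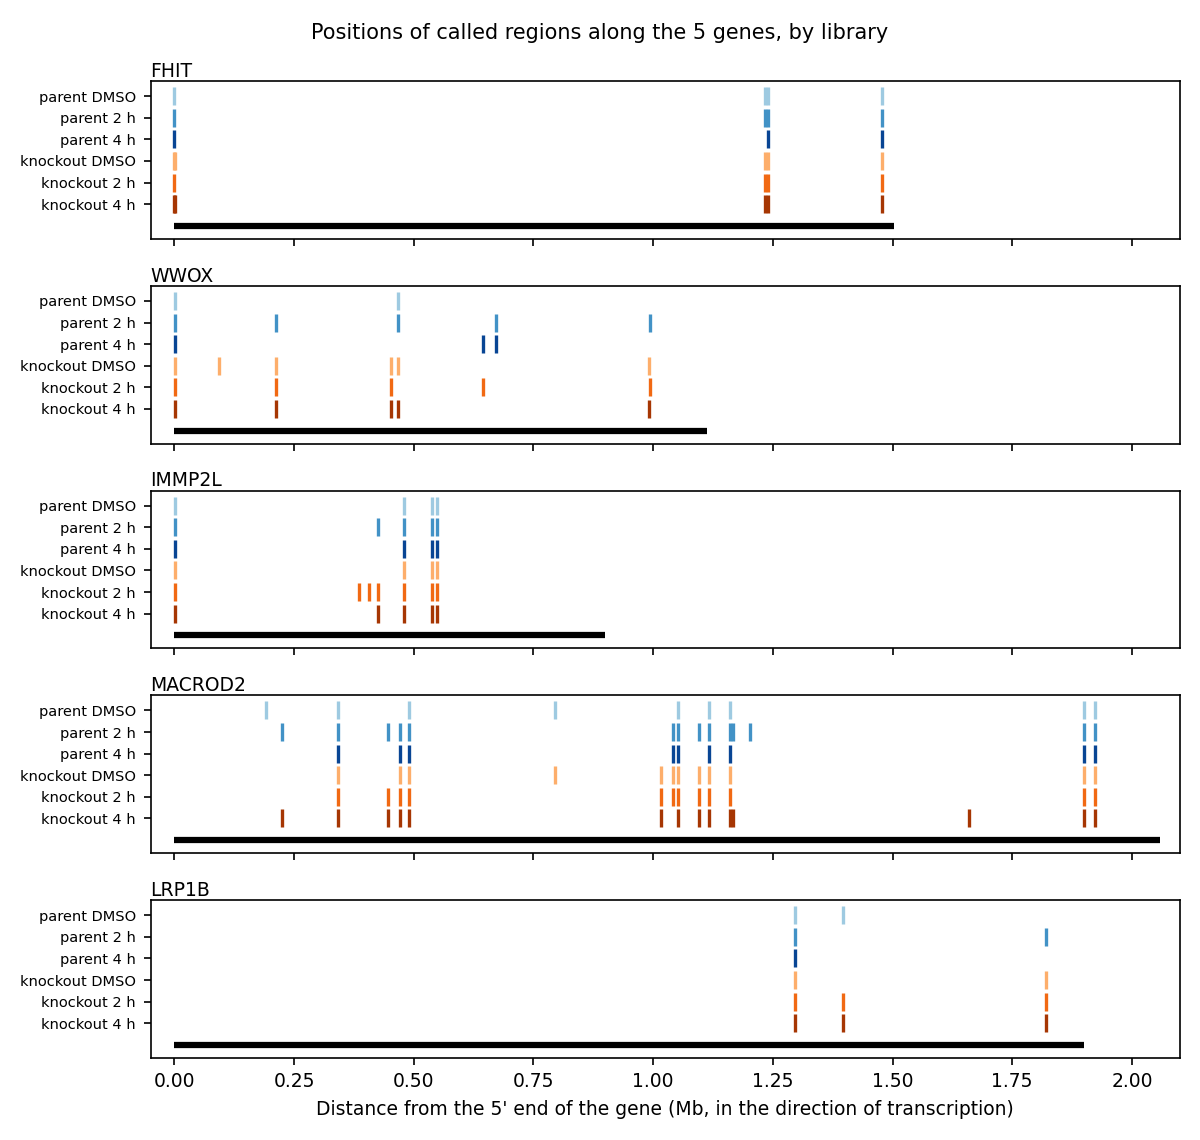
Positions of called regions along each gene, as distance in Mb from its 5′ end, with 1 row per library (ticks) and the gene span as a black bar. FHIT and LRP1B have long empty stretches after their 5′ ends, and MACROD2 has a group of regions between 1000 and 1250 kb.

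FHIT was called near its 5′ end and towards its 3′ end, with a long empty stretch between. The region at its 5′ end, chr3:61236918-61237327, had a fold enrichment over local background, as given by the authors' peak caller, of 5.98 in parent DMSO, 8.91 in parent 2 h and 9.16 in parent 4 h. The knockout values were 8.56 at DMSO, 8.78 at 2 h and 9.21 at 4 h. The parent DMSO value was the lowest, and it rested on a summit pileup of 14 against 30 to 36 in the other libraries. Median folds of the whole lists were 5.63, 6.53 and 6.91 in parent DMSO, 2 h and 4 h. For the knockout lists they were 5.74, 5.77 and 5.66. By the recorded samples, the parent values at this region are 8.91 at DMSO, 9.16 at 2 h and 5.98 at 4 h. From the promoter side of FHIT inward, no peak of any library was called for 1.23 Mb (chr3:60003753-61235718), 82.0% of the span. In the union of all lists, 292 of 32014 stretches between neighbouring regions were at least 1 Mb long, unassembled sequence included, and the median stretch was 33.0 kb. Beyond this empty stretch, chr3:59996381-59996973 had folds between 6.68 and 8.67 and chr3:59758240-59758986 between 6.86 and 7.82, both in all 6 libraries. The folds of the 2 genotypes overlapped at both. The region chr3:60003409-60003752 was missing from parent 4 h only, and chr3:61235719-61235923, 1.31 kb inside the 5′ end, was called in knockout DMSO (4.91-fold) and knockout 4 h (4.12-fold). The ratio of FHIT's peak density to the whole list ran from 0.272 to 0.553, and its interval stayed below 1 in parent 2 h, parent 4 h and knockout 2 h.

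WWOX combined a strong promoter with weak internal regions that differed from library to library. The promoter region, chr16:78133155-78134003, had folds of 7.17, 9.40 and 11.1 in parent DMSO, 2 h and 4 h. In the knockout libraries they were 8.73, 8.60 and 8.69, within the parent range. The parent folds rose in the same order as the whole-list medians given above, and whether they follow those medians was not tested. By the recorded samples, the parent folds are 9.40 at DMSO, 11.1 at 2 h and 7.17 at 4 h. None of the other 9 WWOX regions was held by all libraries, and their folds ran from 3.70 to 6.95. The region chr16:78585616-78585980, 452 kb from the 5′ end, was held by all 3 knockout libraries, at 4.81, 3.70 and 4.24-fold, and by no parent library. Its summits rested on pileups of 9 or 10, near the calling threshold. WWOX held 2 peaks in parent DMSO, 5 in parent 2 h and 3 in parent 4 h, whereas the knockout libraries had 6, 5 and 5. Its ratio to the whole list lay between 0.368 and 0.824, with intervals that included 1 in each library.

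With the peaks of all libraries joined, IMMP2L had the widest of the 3 called promoter regions, and it had a group of regions near its middle. In parent 4 h, knockout 2 h and knockout 4 h taken singly, the WWOX promoter peak was wider than that of IMMP2L. In the other libraries it was narrower. The region at the 5′ end, chr7:111201790-111202885, was 1096 bp wide in the union, with folds of 9.67, 10.7 and 11.8 in parent DMSO, 2 h and 4 h. The knockout folds were 8.12, 8.43 and 10.1. The parent order is again that of the whole-list medians, and by the recorded samples it is 10.7, 11.8 and 9.67. Another 3 regions were held by every library. At chr7:110723406-110723785 folds lay between 4.94 and 8.11, at chr7:110665138-110665361 between 4.55 and 8.56, and at chr7:110653134-110653782 between 5.46 and 10.6. The last of these was highest in parent 2 h, where the next library reached 7.44. All regions away from the promoter lay between 386 and 549 kb from the 5′ end. LRRN3, a gene for a neuronal leucine-rich repeat protein, is nested in IMMP2L in RefSeq's GRCh38 gene table, and whether any of these regions belongs to it was not analysed here. The density of 4.45 to 7.78 peaks per Mb gave ratios to the whole list of 0.607 to 1.10, and in each library the interval included 1.

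MACROD2 held 19 of the 44 regions without one at its start. Its densities of 4.37 to 6.80 peaks per Mb gave ratios of 0.597 to 1.05 to the whole list, again with intervals that included 1, although the whole of chromosome 20 averaged 5.95 to 10.8 peaks per Mb. The region nearest the start was 191 kb away and was called in parent DMSO alone. Regions held by all 6 libraries numbered 7. The strongest, chr20:14466737-14467227, had folds of 11.8 in parent DMSO, 10.2 in parent 2 h and 6.68 in parent 4 h, and of 7.81, 7.86 and 9.36 in the knockout libraries. It was therefore both highest and lowest in parent libraries, with the knockout values between. The region chr20:14318074-14318452 had folds of 6.92 to 9.55. FLRT3, a gene for a cell adhesion protein, is nested in MACROD2 in the same gene table, and its relation to this region was not analysed here. Of the 19 regions, 8 lay between 1000 and 1250 kb from the 5′ end. Among these, chr20:15027595-15028482 (5.67 to 8.84-fold), chr20:15092347-15092820 (4.26 to 6.09) and chr20:15136593-15136949 (4.91 to 6.45) were in every library, as were chr20:15876201-15876760 (4.99 to 7.52) and chr20:15899474-15900197 (5.97 to 8.56) towards the 3′ end. The region chr20:14993281-14993792 was called in all 3 knockout libraries, at 5.66, 5.62 and 3.84-fold, with summit pileups of 19, 22 and 13, and in no parent library.

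LRP1B was the emptiest span. LRP1B held 1 to 3 peaks per library and its first 1.30 Mb (chr2:141593186-142889270), 68.2% of the span, held none. The region at the edge of that stretch, chr2:141592696-141593185, was called in every library, at 5.68, 7.25 and 7.71-fold in the parent lists and at 4.85, 8.53 and 9.12-fold in the knockout lists. The highest single fold in LRP1B was 9.70, in knockout DMSO, at chr2:141069456-141069970, which was called in all 3 knockout libraries and in parent 2 h. The ratio to the whole list ran from 0.0718 to 0.243, and its interval stayed below 1 in all 6 libraries. Whether the cells carry deletions or other copy number changes in these spans was not analysed here.

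**Figure D3:**
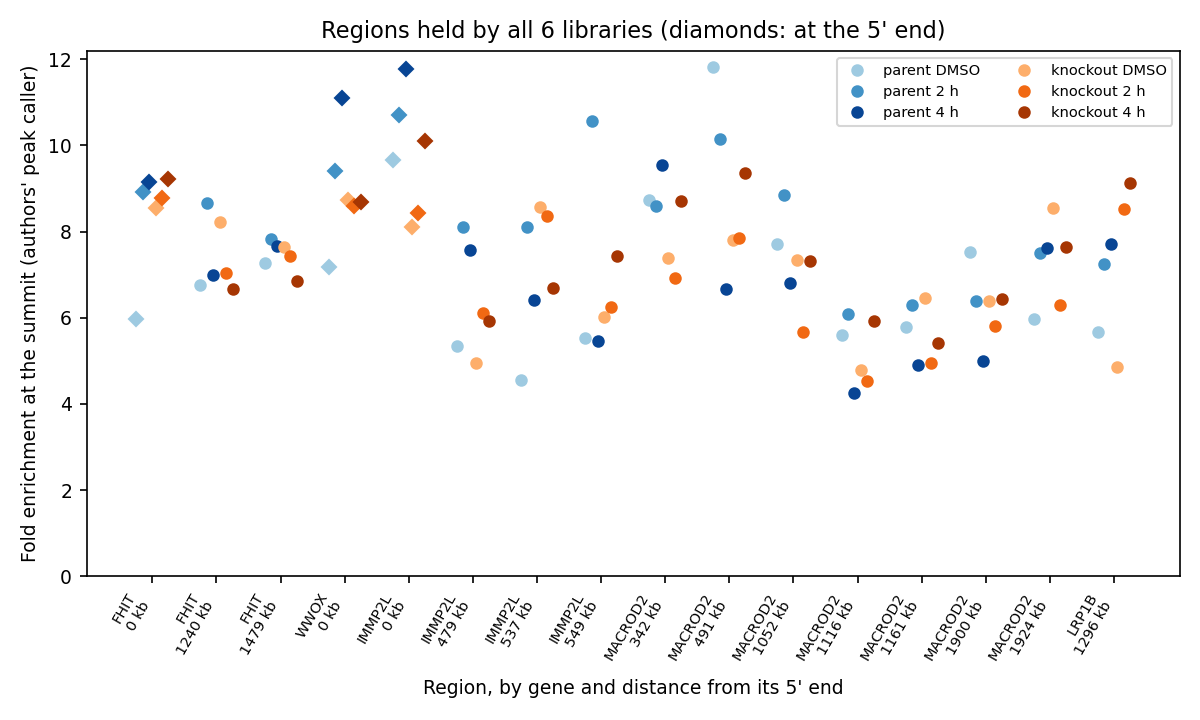
Fold enrichment at the summit, from the authors' peak caller (vertical axis), for the 16 regions held by all 6 libraries, labelled by gene and distance from the 5′ end. Diamonds are regions at a 5′ end, and WWOX and IMMP2L reach 11.1 and 11.8 there in parent 4 h. Folds are relative to each library's own background.

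Sharing among libraries in the spans resembled that of all regions. Of the 44 regions, 16 were held by all 6 libraries (36.4%, exact binomial interval 22.4 to 52.2%), against a background of 34.6% over the union. Another 10 were called in 1 library alone (22.7%, 11.5 to 37.8%), against 27.3%. Member peaks were narrower than the lists they came from. Their median width was 222, 332.5 and 276.5 bp in parent DMSO, 2 h and 4 h against 353, 452 and 487 bp over the whole lists, and 290, 294 and 313 bp against 374, 381 and 352 bp in the knockout libraries. Median folds lay between 5.79 and 7.01 in the spans and between 5.63 and 6.91 in the whole lists. The median -log10 q of member peaks was 6.81, 10.5 and 10.1 in parent DMSO, 2 h and 4 h. The whole parent lists had 7.51, 12.8 and 15.1. In the knockout libraries it was 7.42, 8.24 and 8.97, against 8.39, 8.88 and 7.99.

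The genotypes were compared first by regions, since this does not depend on how libraries are placed among treatments. More knockout than parent libraries held 18 of the 44 regions (40.9%, 26.3 to 56.8%), against 27.1% of the union. More parent than knockout libraries held 5 (11.4%, 3.79 to 24.6%), against 28.2% of the union, a share above the upper bound. The intervals treat regions as independent, but all regions come from the same 6 libraries. A single library with few peaks in the spans can therefore shift many regions together. These intervals do not test genotype, and the counts of 18 and 5 were added after the data were seen. Regions found in knockout libraries only numbered 10 (22.7%, 11.5 to 37.8%), against 15.6%, and those in parent libraries only 5 (11.4%, 3.79 to 24.6%), against 20.3%. Some of these lie side by side, each counted for its own genotype. In WWOX, chr16:78776686-78776940 (parent 4 h) ends just before chr16:78776949-78777127 (knockout 2 h). In MACROD2, chr20:14771353-14771642 (knockout DMSO) ends shortly before chr20:14771747-14771912 (parent DMSO). Both pairs also enter the counts of 18 and 5. Regions in all 3 knockout and no parent libraries numbered 2 (4.55%, 0.555 to 15.5%), against 0.715%, and those in all 3 parent and no knockout libraries 0, which allows up to 8.04%, against 0.309%. Leaving out both DMSO libraries depends on the placement and was done by code only. Of 40 regions, 15 then leaned to the knockout (37.5%, 22.7 to 54.2%) and 4 to the parent (10.0%, 2.79 to 23.7%). The union had 17.5% and 31.7%, both outside these intervals. The 18 regions were spread over all 5 genes, with 6 in MACROD2, 5 in WWOX, 3 in IMMP2L and 2 each in FHIT and LRP1B, and the 5 were in MACROD2 (3) and WWOX (2). The parent lists differ more in length than the knockout lists, from 14205 to 23665 peaks, and with lists shortened to equal length 17 of 32 regions leaned to the knockout (53.1%, 34.7 to 70.9%) and 4 to the parent (12.5%, 3.51 to 29.0%), against 24.5% and 24.9% of the union. With a -log10 q of at least 5, 13 of 32 leaned to the knockout (40.6%, 23.7 to 59.4%) and 5 to the parent (15.6%, 5.28 to 32.8%), against 22.3% and 32.0%. In both of these settings the union's share leaning to the parent lay inside the interval, and its share leaning to the knockout lay below it. With the full lists, its share leaning to the knockout lay inside the interval.

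At matched treatments, the share of knockout peaks without a parent counterpart was highest at 4 h. Of the 32 member peaks of knockout 4 h, 15 met no parent 4 h peak (46.9%, 29.1 to 65.3%), against 19.4% of the whole list. These comprised 6 in MACROD2, 4 in WWOX, 2 each in FHIT and LRP1B and 1 in IMMP2L. In the other direction 3 of 20 parent peaks met no knockout peak (15.0%, 3.21 to 37.9%), against 30.2%. The log2 ratio of peak numbers, knockout over parent, was 0.68 (-0.17 to 1.56) in the spans and -0.17 in the whole lists. At DMSO, 11 of 29 knockout peaks were added (37.9%, 20.7 to 57.7%) against 35.2%, and 3 of 21 parent peaks missing (14.3%, 3.05 to 36.3%) against 11.6%. At 2 h, 6 of 31 were added (19.4%, 7.45 to 37.5%) against 15.4%, and 5 of 30 missing (16.7%, 5.64 to 34.7%) against 26.4%. The spans thus stood outside the whole-list share in the 4 h pair, for added peaks, and not at DMSO or 2 h. Whether the pairs differ from each other was not tested. By the recorded samples, the pair called 4 h here is the 2 h pair, the 2 h pair is DMSO and the DMSO pair is 4 h, with the same numbers.

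**Figure D4:**
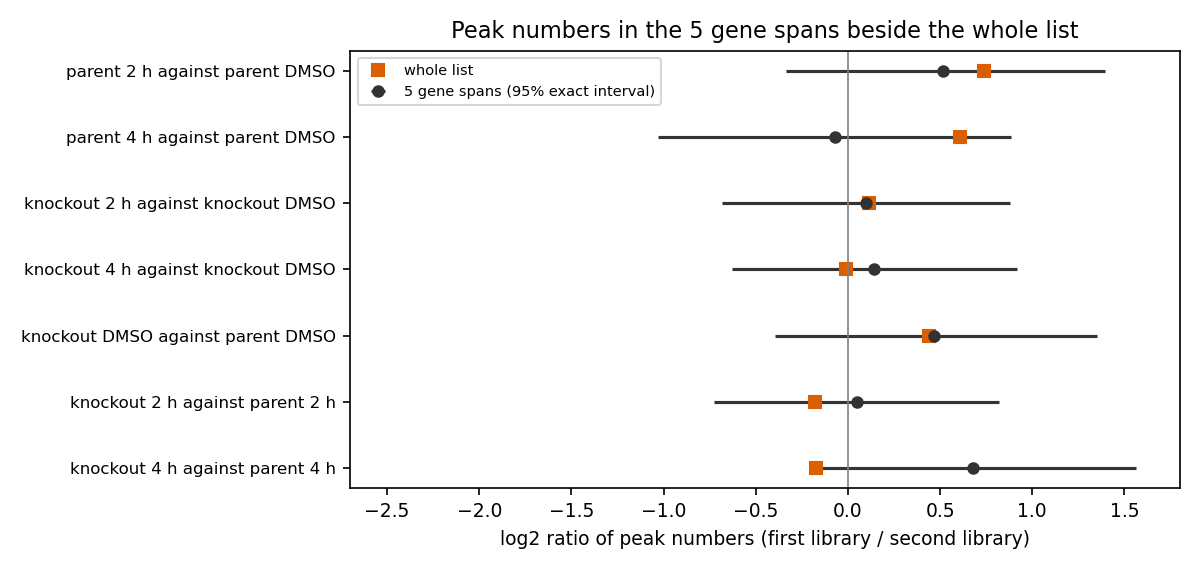
Log2 ratio of peak numbers (horizontal axis) in the 5 spans, with exact binomial 95% intervals (circles), beside the whole lists (squares), for 7 comparisons named on the vertical axis. The whole-list value lies inside the interval of the spans for 6 comparisons, and at its lower bound for knockout 4 h against parent 4 h.

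In parent cells the camptothecin lists were longer than the DMSO list, whereas member peaks numbered 21 at DMSO, 30 at 2 h and 20 at 4 h. At 4 h, 4 of 20 member peaks met no DMSO peak (20.0%, 5.73 to 43.7%), against 42.8% of the whole list, and 5 of 21 DMSO peaks were missing (23.8%, 8.22 to 47.2%), against 11.2%. Both intervals hold the whole-list share. The missing ones lay in MACROD2, with 2, and in FHIT, WWOX and LRP1B, with 1 each. At 2 h, 12 of 30 were added (40.0%, 22.7 to 59.4%), against 45.4%, and 3 of 21 missing (14.3%, 3.05 to 36.3%), against 7.45%. Added peaks at 2 h were in MACROD2 (7), WWOX (3), IMMP2L (1) and LRP1B (1). Set against parent DMSO, span peaks gave a log2 ratio of 0.51 (interval -0.34 to 1.39) after 2 h and -0.07 (-1.03 to 0.88) after 4 h of camptothecin, beside 0.74 and 0.61 in the whole lists. In lists shortened to equal length the values were -0.30 at 2 h and -0.81 at 4 h. The 2 comparisons share the DMSO library. Regions held by both camptothecin libraries and not by parent DMSO numbered 3 (6.82%, 1.43 to 18.7%), against 19.8% of the union, a share above the upper bound. This interval too treats regions as independent and does not test treatment. Those held by parent DMSO alone among the parent libraries numbered 3 (6.82%, 1.43 to 18.7%), against 2.48%. By the recorded samples the log2 ratios in the spans are -0.58 (-1.48 to 0.28) at 2 h and -0.51 (-1.39 to 0.34) at 4 h, beside -0.13 and -0.74 in the whole lists. Both intervals include 0 under each placement. In that placement 11 of 30 DMSO peaks were missing at 2 h (36.7%, 19.9 to 56.1%), against 20.9%, and 1 of 20 was added (5.00%, 0.127 to 24.9%), against 13.8%. At 4 h the lists of the 2 h comparison above change sides, with 12 of 30 missing, against 45.4%, and 3 of 21 added, against 7.45%. No region was then held by both camptothecin libraries and not by DMSO, which allows up to 8.04%, against 0.659% of the union, and 9 were held by DMSO alone (20.5%, 9.80 to 35.3%), against 12.9%. The low share of regions gained under camptothecin given above thus holds for the placement by code.

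In knockout cells, member peaks differed between treatments about as often as the lists did. At 2 h, 7 of 31 were added (22.6%, 9.59 to 41.1%), against 23.1%, and 5 of 29 missing (17.2%, 5.85 to 35.8%), against 16.5%. At 4 h, 6 of 32 were added (18.8%, 7.21 to 36.4%), against 20.6%, and 3 of 29 missing (10.3%, 2.19 to 27.4%), against 21.4%. Added peaks at 2 h were led by IMMP2L with 3, and at 4 h by MACROD2 with 4. The log2 ratios in the spans were 0.10 (-0.68 to 0.88) and 0.14 (-0.63 to 0.92), beside 0.12 and -0.01 in the whole lists. Both knockout camptothecin libraries, and not knockout DMSO, held 3 regions (6.82%, 1.43 to 18.7%), against 4.89% of the union, and knockout DMSO alone among the knockout libraries held 2 (4.55%, 0.555 to 15.5%), against 6.66%. By the recorded samples the log2 ratios are 0.05 at 2 h and -0.10 at 4 h. In that placement 5 of 31 DMSO peaks were missing at 2 h (16.1%, 5.45 to 33.7%), against 24%, and 6 of 32 were added (18.8%), against 16.5%, while at 4 h 7 of 31 were missing (22.6%), against 23.1%, and 5 of 29 added (17.2%), against 16.5%. Regions in both camptothecin libraries and not DMSO then numbered 3, against 2.68%, and those in DMSO alone 4 (9.09%, 2.53 to 21.7%), against 9.35%. By code, both log2 intervals of the knockout include 0, as do those of the parent. With 1 library per group and few peaks, a difference between treatments could not be tested in either genotype.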

How the data were processed

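ATAC-seq peak lists of 6 libraries were used. MACS2 2.1.2 (a peak caller), BWA 0.7.17 (an aligner), Picard 2.9.2, SAMtools 1.8, Trimmomatic 0.39 and Trim Galore 0.6.2 are listed, with hg19, in the submitters' processing notes. The sources used here do not give read shifting for the transposase offset, read extension or duplicate handling, and each can move peak edges and numbers. Peaks were called per library, since each deposited list carries 1 library code. Each deposited entry has a position, a score, a fold enrichment (a ratio over local background) and, on a -log10 scale, a p and a q. All deposited lists end at a -log10 q of 2. The score deposited by the authors was not used.

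Overlapping entries of a list were merged, keeping the most significant, and entries on chromosome Y or the mitochondrial genome (0.445% to 0.728% of a list) were left out. Coordinates are counted from 1. Gene spans are those of hg19, and the strand of each gene came from general knowledge, checked against RefSeq's GRCh38 promoter table for 4 of the 5. A list differed from another where a peak met none of its peaks by 1 bp or more. Union regions join peaks that overlap in any library. The fold and p of an entry together gave its summit pileup under a Poisson model, with a misfit of at most 2.2e-05 in -log10 p. The steps were tested on simulated data. Intervals are exact (Poisson for counts, Clopper-Pearson for shares) at 95% and cover counting error only, since each group has 1 library. Amplified reads are also not independent molecules. Python 3.11.15 and SciPy 1.17.1 were used. No filter for repeated sequence was applied.

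The named regions are those at a 5′ end, those in all 6 libraries, those in all 3 libraries of 1 genotype and none of the other, and the highest fold of each gene. A few others named in the text were chosen after their values were seen. The genes and lists were chosen with earlier results of these data known. One further gene of the set is not reported here, and pooled values cover the 5 others.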

Additional observations from a re-analysis of the deposited data

Results flagged for a closer look

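With libraries placed by their codes, WWOX peak numbers differed from DMSO in opposite directions under camptothecin in the 2 genotypes. Relative to parent DMSO, the span held 3 more peaks in parent 2 h and 1 more in parent 4 h. Relative to knockout DMSO, the changes were -1 in knockout 2 h and -1 in knockout 4 h. The difference between the genotypes was not tested, the counts are between 2 and 6 peaks a library, and the parent list as a whole grew from 14205 to 23665 and 21617 peaks. By the recorded samples the span held 5, 3 and 2 peaks at DMSO, 2 h and 4 h in the parent and 5, 5 and 6 in the knockout. With a -log10 q of at least 5, parent DMSO, 2 h and 4 h held 1, 1 and 2 WWOX peaks and the knockout libraries 4, 1 and 3, so the parent difference at 2 h was then 0.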

How the results depend on the processing

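Of 285 values recomputed under an alternative setting, 273 stayed within the 95% interval of the reported value or, for counts of regions, within 1.5 times of it, and the other 12 are given here. These intervals are wide because peaks are few, so staying inside them is a weak criterion and does not show stability. The log2 ratio of parent 2 h against DMSO stayed inside although it went from 0.51 to -0.30 with lists of equal length. With a -log10 q of at least 5, peaks per Mb fell to 0.898 in WWOX in parent 2 h and knockout 2 h. In the same setting, regions in all 3 knockout and no parent libraries numbered 1 and regions of a single library 5. With lists of equal length (14205 peaks), parent 2 h against DMSO gave 38.1% of peaks missing, parent 4 h against DMSO 0% added, and knockout 4 h against parent 4 h 0% missing. Placed by the recorded samples, parent 2 h against DMSO gave a log2 ratio of -0.58, 36.7% missing and 5.00% added, and knockout against parent 46.9% added at 2 h and 19.4% at DMSO. Fewer peaks enter under the first 2 of these settings, and other libraries under the last. The counts of regions leaning to a genotype, and the alternatives for them, were added after the data were seen. No paired analysis was possible because each group has 1 library and the labels carry no replicate numbers. With 20 to 32 member peaks a library, single genes hold too few peaks to compare treatments.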
